A study of Mus musculus with 10 samples.

Results

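The photoreceptor transcription factors are 10 genes, *Otx2*, *Crx*, *Prdm1*, *Neurod1*, *Rorb*, *Nrl*, *Nr2e3*, *Mef2d*, *Thrb* and *Rxrg*, chosen by symbol from the 53974 genes with an RNA-seq value, together with the ATAC-seq regions lying within 1000 bp of an end of any of them, of which there were 4 among 16600. RNA-seq measures transcript levels, and ATAC-seq measures how open the chromatin is to a transposase. All mice were C57BL/6 animals of 8 to 10 weeks homozygous for a floxed *Arid1a* allele (Arid1a fl/fl). *Arid1a* encodes a DNA-binding subunit of the SWI/SNF chromatin remodeler. The WT group received AAV2-GFP and the cKO group AAV2-Cre (genotype Arid1a del/del by label), both from the broadly active CMV promoter and both injected into the vitreous body 2 weeks before optic nerve crush (ONC). Retinas were taken 3 days after ONC, and living cells were sorted with an antibody to Thy1.2, a surface protein of retinal ganglion cells (RGCs) that T cells also carry. The design held no uninjured group, so WT and cKO shared the floxed allele, an AAV2 injection and the crush, while the virus differed in what it carried and, by the study's methods, in titer. RNA-seq covered 3 libraries a group and ATAC-seq 2. The labels call the replicates biological without tying them to animals, and by the study's supplement each sorted sample held several retinas. The p-values therefore measure the spread between these pooled libraries and not between animals.

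Rods and cones, the light-sensing neurons of the retina, are specified and maintained by a small network of transcription factors. *Otx2* and *Crx* encode related homeodomain proteins that switch on the photoreceptor program, *Nrl* and its target *Nr2e3* direct precursors to the rod fate, and the nuclear receptors encoded by *Thrb* and *Rxrg* set the opsin choice of cones. Several of them keep working in the adult retina, where the CRX and NRL proteins bind beside phototransduction genes.

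The labels were checked first. *Arid1a* was not lower in the libraries labelled cKO: its TPM (a transcript level scaled by length and to a fixed sum in each library) was 18.8, 11.7 and 14.1 in WT and 18.8, 27.9 and 25.0 in cKO, a log2 fold change of 0.66 (SE 0.28, adjusted p = 0.274, limma). This value covers the whole gene, and the floxed exon was not resolved. The source was labelled as RGCs, and the study describes nearly all sorted cells as positive for Tuj1, a neuronal tubulin. Of the 12 RGC markers *Thy1* averaged 67.7 TPM in WT and 110 in cKO, *Isl1*, which bipolar cells also make, 70.3 and 83.7, and *Nefl* 12.7 and 18.6. The more restricted *Rbpms* and *Pou4f2*, named after their values were seen, averaged 4.76 and 3.33 TPM and 0 and 0.05. *Tubb3*, which encodes the tubulin detected as Tuj1 and was likewise named after its values were seen, averaged 4.49 and 10.2 TPM. These stood against 3132 and 8806 TPM of *Gnat1*, which encodes the rod transducin. WT and cKO below therefore mean libraries labelled so, and the photoreceptor factors were measured in cells in which rod transcripts far outnumbered those of RGC markers.

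Promoter sequences are shown for 5 of the genes because the ATAC-seq regions split them: *Thrb*, *Rorb* and *Mef2d* had a region over the window and *Crx* and *Nrl* had none. Each line is the 250 bases before a transcription start from RefSeq (GRCm38.p6), read 5′ to 3′ on the strand of the gene. Capitals mark the letters TAATCC or TAAGCC (the core bound by CRX and OTX2), TGCTGA (part of an NRL site), CAGATG or CATATG (E-boxes of the kind bound by NEUROD1) and AGGTCA (part of a nuclear receptor site), each searched on both strands, so that GGATTA and GGCTTA mark the reverse of the first pair. None of these motifs overlapped another in the lines printed.
*Crx* (chr7:15879956-15880205, minus strand): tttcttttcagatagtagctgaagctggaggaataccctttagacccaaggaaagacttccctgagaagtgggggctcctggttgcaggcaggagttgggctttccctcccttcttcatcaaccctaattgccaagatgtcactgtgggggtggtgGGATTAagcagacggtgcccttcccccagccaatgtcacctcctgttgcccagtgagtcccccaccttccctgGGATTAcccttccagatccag
*Nrl* (chr14:55524253-55524502, minus strand): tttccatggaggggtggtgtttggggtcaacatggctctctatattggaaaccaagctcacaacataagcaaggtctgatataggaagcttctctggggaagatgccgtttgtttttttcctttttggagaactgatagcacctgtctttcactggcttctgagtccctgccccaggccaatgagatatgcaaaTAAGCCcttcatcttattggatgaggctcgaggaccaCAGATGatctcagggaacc
*Rorb* (chr19:19111197-19111446, minus strand): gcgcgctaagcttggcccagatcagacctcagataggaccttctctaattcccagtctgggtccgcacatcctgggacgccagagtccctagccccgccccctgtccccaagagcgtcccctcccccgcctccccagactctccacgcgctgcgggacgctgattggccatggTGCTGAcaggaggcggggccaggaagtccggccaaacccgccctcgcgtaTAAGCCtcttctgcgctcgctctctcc
*Mef2d* (chr3:88142122-88142371, plus strand): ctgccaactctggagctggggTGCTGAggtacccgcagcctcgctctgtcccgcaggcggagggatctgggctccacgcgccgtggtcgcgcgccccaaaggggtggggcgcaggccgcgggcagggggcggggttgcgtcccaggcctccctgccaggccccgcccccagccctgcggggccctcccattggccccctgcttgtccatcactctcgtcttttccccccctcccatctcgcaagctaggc
*Thrb* (chr14:17660710-17660959, plus strand): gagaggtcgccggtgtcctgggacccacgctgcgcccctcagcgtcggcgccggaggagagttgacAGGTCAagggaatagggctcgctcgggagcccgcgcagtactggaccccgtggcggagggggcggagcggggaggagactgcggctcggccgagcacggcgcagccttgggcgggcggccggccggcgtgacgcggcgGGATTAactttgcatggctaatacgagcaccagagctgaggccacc

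The *Crx* window held 2 copies of TAATCC, and at least 2 copies of TAATCC or TAAGCC were present in 1.18% of all 32851 windows. The *Nrl* window held 1 TAAGCC and 1 CAGATG, the *Rorb* window 1 TAAGCC and 1 TGCTGA, the *Mef2d* window 1 TGCTGA, and the *Thrb* window 1 TAATCC and 1 AGGTCA. Over all windows TAATCC was present in 6.25%, TAAGCC in 8.20%, TGCTGA in 16.1%, CAGATG in 14.4%, CATATG in 3.46% and AGGTCA in 14.0%. The windows differed more plainly in base composition. *Thrb*, *Mef2d* and *Rorb* had 71.6%, 73.2% and 66.0% GC with 30, 19 and 18 CpG dinucleotides, and *Crx* and *Nrl* had 54.4% and 47.2% GC with 1 and 2. Of the starts not printed, *Neurod1* stood apart among the genes without a region, with 67.6% GC, 22 CpG, 2 copies of TGCTGA and 1 CATATG. All 10 genes matched at least 1 window. Letters in a window are a description and do not show binding.

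The question for RNA was whether these factors differed between WT and cKO cells. Of the 10 factors 9 were higher in cKO and 1 (*Prdm1*) was lower, and the median log2 fold change was 0.95, beside 0.16 over the 17555 genes tested. All 10 passed the filter on low values. None passed an adjusted p under 0.05 in limma (0.00570% of all genes did), and 6 had an unadjusted p under 0.05, all of them higher in cKO, against 11.9% of all genes. In 6 factors every cKO library lay above every WT library, as in 18.7% of all genes. In sum the 10 factors took 864 TPM, 1110.0 TPM and 1169 TPM in WT and 1601 TPM, 2152 TPM and 2189 TPM in cKO, without overlap. After scaling the libraries by the median of ratios the median over all genes was 0.01 and that of the factors 0.78.

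*Otx2*, *Crx*, *Neurod1* and *Prdm1* act at the entry to the photoreceptor fate. *Otx2* (chromosome 14, 48656781 to 48667644), which is needed for photoreceptor and bipolar cells to form, was at 91.1, 78.2 and 72.7 TPM in WT and 187, 207 and 104 in cKO. The cKO libraries lay above WT, with cKO 3 well below the other cKO libraries. The log2 fold change was 0.98 (SE 0.30, adjusted p = 0.173, limma). *Crx* (chromosome 7, 15865947 to 15879955), which activates most photoreceptor genes, was at 116, 117 and 135 TPM in WT and at 235, 337 and 316 in cKO. The groups were far apart relative to their spread, and the log2 fold change of 1.25 (SE 0.22, adjusted p = 0.124, limma) had the smallest unadjusted p of the 10, 0.000685. *Neurod1* (chromosome 2, 79452637 to 79456636), a basic helix-loop-helix factor that sustains photoreceptors and is also made in amacrine and bipolar precursors, was at 87.5, 80.4 and 83.6 TPM in WT and 172, 261 and 157 in cKO. The WT libraries were nearly level and every cKO library was higher, by 1.18 on the log2 scale (SE 0.24, adjusted p = 0.124, limma). *Prdm1* (chromosome 10, 44437174 to 44528558), a repressor that holds young photoreceptors back from the bipolar fate, was at 8.10, 2.76 and 11.9 TPM in WT and 5.58, 5.54 and 8.52 in cKO. Its groups overlapped, WT 2 was the lowest library and WT 3 the highest, and the log2 fold change was -0.04 (SE 0.48, adjusted p = 0.977, limma). Leaving out 1 library moved it between -0.55 and 0.34. *Prdm1* is also made by plasma cells and activated T cells, and the summed T cell markers ranged from 652 to 1843 TPM in WT and from 161 to 390 in cKO, with the B cell and plasma cell markers at 1333 to 6447 and 554 to 1235. Among the WT libraries both sums were lowest in WT 2, as *Prdm1* was, but highest in WT 1, whereas *Prdm1* was highest in WT 3. The sort for Thy1.2 selects for T cells and not for B cells or plasma cells, and the part of either cell type in the *Prdm1* value was not tested.

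The rod factors held the 3 highest means, those of *Nrl*, *Rorb* and *Nr2e3* in both groups. *Nrl* (chromosome 14, 55518978 to 55524981), the leucine zipper factor that commits cells to the rod fate, was at 195, 349 and 308 TPM in WT and 412, 517 and 672 in cKO. It was the highest of the 10 in each of the 6 libraries, and its cKO libraries lay above WT by 0.92 on the log2 scale (SE 0.30, adjusted p = 0.187, limma). *Nr2e3* (chromosome 9, 59942771 to 59960834), a nuclear receptor that represses cone genes in rods, was at 129, 134 and 175 TPM in WT and 194, 340 and 370 in cKO. The cKO libraries were again all higher, with a log2 fold change of 1.00 (SE 0.30, adjusted p = 0.167, limma). *Rorb* (chromosome 19, 18930609 to 19111196), a receptor acting upstream of *Nrl*, was at 162, 187 and 295 TPM in WT and 276, 327 and 384 in cKO. Here the highest WT library exceeded the lowest cKO library, and the log2 fold change of 0.65 (SE 0.28) had an adjusted p of 0.279 in limma. *Mef2d* (chromosome 3, 88141941 to 88172091), a MADS-box factor that acts with CRX at photoreceptor enhancers, was at 53.1, 127 and 42.2 TPM in WT and 65.4, 102 and 94.1 in cKO. WT 2 was its highest library of all. The log2 fold change was 0.37 (SE 0.43, adjusted p = 0.671, limma), and single libraries decided it: it was 0.84 without WT 2 (adjusted p = 0.185, in a range of 0.185 to 0.963 over the alternatives), 0.22 without WT 1, 0.25 without cKO 2 and 0.06 without WT 3.

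The cone factors were lower in level. *Thrb* (chromosome 14, 17659225 to 18040097), whose product drives medium-wavelength opsin, was at 17.3, 25.7 and 37.6 TPM in WT and 45.1, 46.2 and 66.7 in cKO. Every cKO library was above WT, by 0.99 on the log2 scale (SE 0.33, adjusted p = 0.192, limma), although the isoform specific to cones is not separated in a gene value. *Rxrg* (chromosome 1, 167598362 to 167639623), its partner receptor, was at 5.72, 9.07 and 7.93 TPM in WT and 9.02, 9.55 and 16.6 in cKO. WT 2 and cKO 1 were almost level, so the groups overlapped, and the log2 fold change was 0.54 (SE 0.33, adjusted p = 0.421, limma), or 0.28 without cKO 3. For the 6 genes without overlap, the exact two-sided permutation test over libraries gave p = 0.1, the smallest that 3 against 3 libraries allow.

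**Figure D1:**
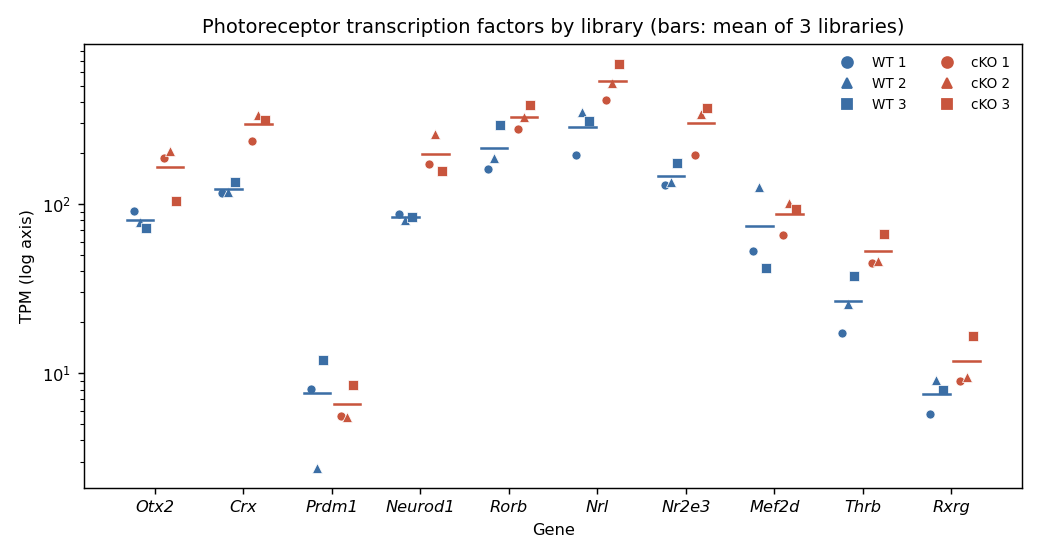
TPM of the 10 factors (log axis) in each of the 3 WT (blue) and 3 cKO (red) RNA-seq libraries, with symbols for the replicate number and bars for group means. *Nrl* is highest throughout, *Crx* and *Neurod1* show the clearest separation, and *Prdm1*, *Mef2d*, *Rorb* and *Rxrg* overlap.

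On the TPM scale the order of the levels was much the same in both groups. In WT the means ran from *Nrl* (284 TPM) through *Rorb* (215), *Nr2e3* (146), *Crx* (123), *Neurod1* (83.8), *Otx2* (80.7), *Mef2d* (74.0) and *Thrb* (26.9) to *Prdm1* (7.59) and *Rxrg* (7.57). Neighbors in this order overlapped over the libraries, except that *Crx* lay above *Neurod1*, *Mef2d* above *Thrb*, and *Thrb* above *Prdm1*. In cKO the means were 533 TPM for *Nrl*, 329 for *Rorb*, 301 for *Nr2e3*, 296 for *Crx*, 197 for *Neurod1*, 166 for *Otx2*, 87.0 for *Mef2d*, 52.6 for *Thrb*, 11.7 for *Rxrg* and 6.55 for *Prdm1*. There *Nrl* stood clear of *Rorb*, while *Rorb*, *Nr2e3* and *Crx* could not be separated.

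Genes that mark rods and cones were higher in cKO to a like or larger degree. All 16 rod genes tested were higher with an unadjusted p under 0.05 and a median log2 fold change of 1.34, and their summed TPM ranged from 15855 to 22194 in WT and from 33270 to 60958 in cKO. Among them *Gnat1* had a log2 fold change of 1.46 (SE 0.33, adjusted p = 0.125, limma) and *Sag*, the rod arrestin, 1.61 (SE 0.36, adjusted p = 0.124, limma). Of 11 cone genes 9 had an unadjusted p under 0.05, all higher, with a median of 0.97 and sums of 3082 to 3883 TPM in WT and 5419 to 8741 in cKO. *Opn1sw*, the short-wavelength opsin, was at 0.96, *Gnat2*, the cone transducin, at 0.91 and *Gnb3* at 0.73 on the log2 scale. Over all genes tested 11.9% were higher at an unadjusted p under 0.05. No gene of either list passed an adjusted p of 0.05. In sorted bulk cells, more photoreceptors and more RNA per photoreceptor cannot be told apart.

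Relative to the rod genes of the same library, all 10 factors had a lower mean in cKO, although *Crx* turned to 0.04 and *Neurod1* to -0.02 when cone genes were the reference. The measure is the log2(TPM + 1) of a factor minus the mean over the 16 rod genes, a mean that was 8.36 in WT and 9.75 in cKO. *Crx* stayed closest, at -1.49, -1.25 and -1.49 in WT and -1.39, -1.70 and -1.57 in cKO, a difference of -0.14 (p = 0.4, exact two-sided permutation test). *Neurod1* differed by -0.21, *Thrb* by -0.41, *Otx2* by -0.42 and *Nrl* by -0.47, all with overlapping groups. The groups did not overlap for *Nr2e3* (-0.40), *Rorb* (-0.74), *Rxrg* (-0.85), *Mef2d* (-1.02) and *Prdm1* (-1.43), each at the smallest exact permutation p of 0.1. The *Mef2d* difference rested largely on WT 2 (-1.14, against -2.60 and -3.14 in the other WT libraries) and was -0.45 without it, that of *Rxrg* was -0.57 without cKO 2, and that of *Nr2e3* was -0.21 against cone genes. *Rorb*, for one, was at -1.01, -0.58 and -0.37 in WT and -1.15, -1.75 and -1.29 in cKO. The median difference over the 10 factors was -0.45, and it was -0.26 when the 11 cone genes served as the reference. These are 10 comparisons that share 1 reference, and its rise from 8.36 to 9.75 enters each difference in full. Any gene that rose less than the rod mean is therefore lower on this measure. The rod mean itself did not overlap between groups, from 8.14 to 8.57 in WT and from 9.27 to 10.1 in cKO. A gene of constant TPM would thus also show no overlap and an exact permutation p of 0.1, so that p adds no support. The median log2 fold change was 0.95 for the factors and 0.16 over all genes tested, so lower values are not particular to the factors. The share of all genes without overlap on this measure was not tested.

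**Figure D2:**
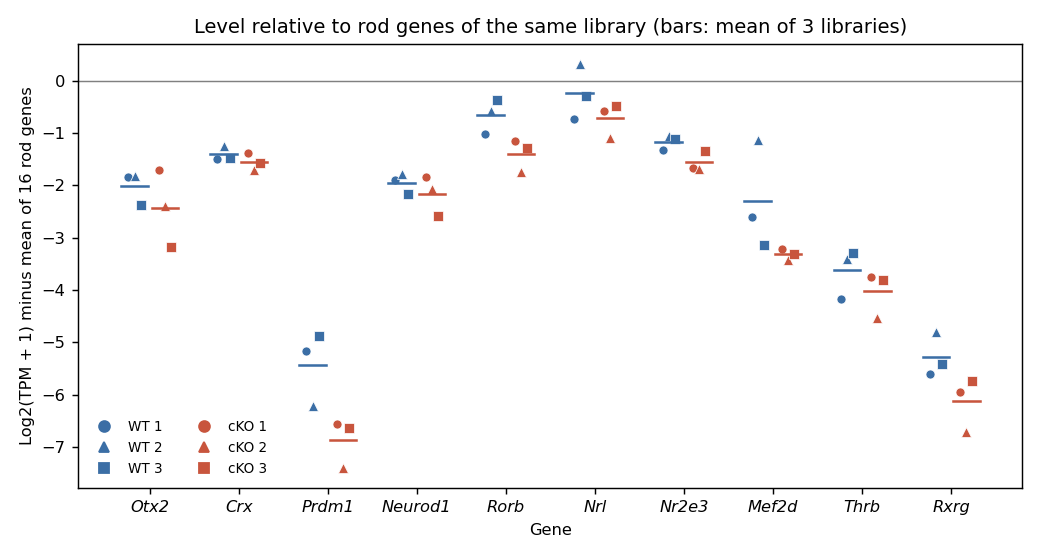
Log2(TPM + 1) of each factor minus the mean of 16 rod genes in the same library (vertical axis, log2 units), for 3 WT (blue) and 3 cKO (red) libraries with bars for group means. *Crx* is nearly level between the groups, and the cKO points of *Prdm1*, *Rorb*, *Nr2e3*, *Mef2d* and *Rxrg* all lie below the WT points. The rod mean is itself higher in every cKO library, so a gene of constant TPM would also lie lower in cKO.

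Markers of some other cells, most plainly immune cells, differed between the groups, and the part of other cells in the factor values was not tested. Of 10 T cell markers 8 had an unadjusted p under 0.05, all lower in cKO (median log2 fold change -2.04), against 6.45% of all genes tested, as did 6 of 7 B cell and plasma cell markers (median -2.01) and 5 of 9 myeloid markers (median -1.13, sums of 1862 to 3052 TPM in WT and 770 to 1057 in cKO). *Trac*, a T cell receptor chain, had a log2 fold change of -2.08 (SE 0.51, adjusted p = 0.134, limma), *Jchain* of plasma cells -1.94 (SE 0.74, adjusted p = 0.231, limma) and *Lyz2* of myeloid cells -1.80 (SE 0.25, adjusted p = 0.124, limma). Mueller glia markers had 3 of 9 at an unadjusted p under 0.05, all lower (median -0.61, sums of 9441 to 18712 TPM in WT and 7695 to 17675 in cKO), and endothelial and pericyte markers 1 of 6, also lower (median -0.78). Of 4 pigment epithelium markers tested none had (median -0.35, 18.5 to 36.4 TPM in WT and 15.5 to 29.0 in cKO). Among neurons, 4 of 10 amacrine markers (median 0.78), 1 of 11 bipolar markers (median 0.40), 1 of 3 horizontal cell markers (median 0.71) and 3 of 10 RGC markers (median 0.45, sums of 147 to 203 TPM in WT and 234 to 262 in cKO) had an unadjusted p under 0.05, all higher. Over all genes tested 11.9% were higher at that level, a share that the bipolar markers did not exceed. *Thy1*, the gene of the sorted surface protein, was at 67.7 ± 18.8 TPM in WT and 110 ± 17.6 in cKO (SD, n = 3 each).

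The cKO libraries differed among themselves. In cKO 3, where both were at their lowest among the cKO libraries, the bipolar markers summed to 1333 TPM against 2188 and 2281 in cKO 1 and cKO 2. Amacrine markers summed to 982 TPM there against 2115 and 1744, while Mueller glia markers summed to 17675 TPM against 7695 and 7920. *Otx2* (104 TPM) and *Neurod1* (157 TPM) were also at their lowest among the cKO libraries in cKO 3, like the bipolar and amacrine markers. *Nrl*, *Nr2e3*, *Rorb*, *Thrb* and *Rxrg* were instead at their highest there. Without cKO 3, 4 factors had an unadjusted p under 0.05 in place of 6.

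**Figure D3:**
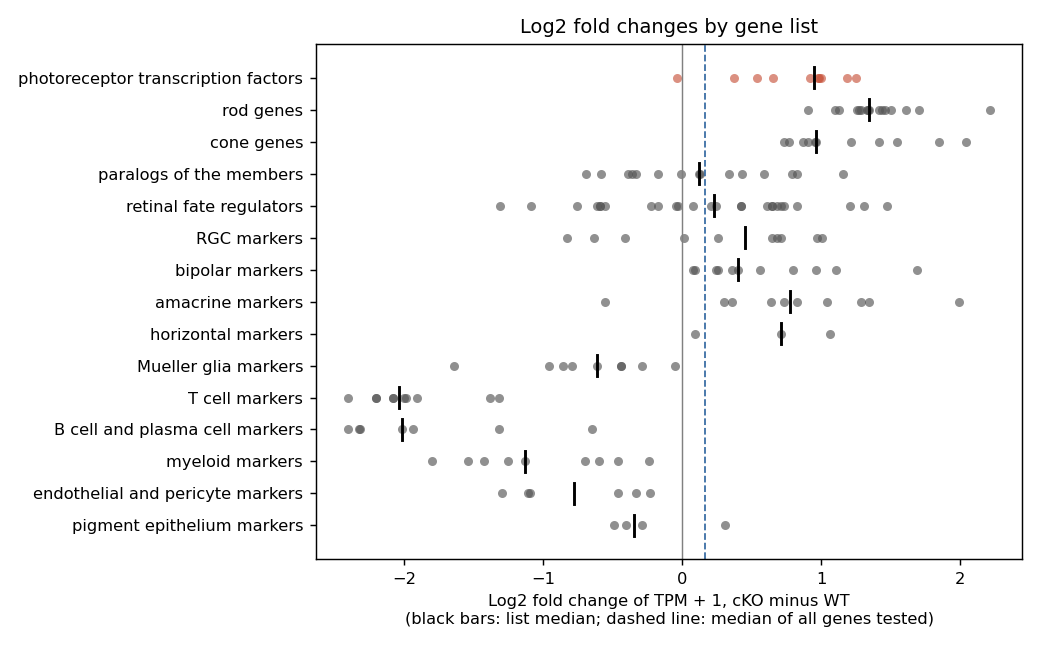
Log2 fold change (cKO minus WT, limma on log2(TPM + 1)) of each tested gene in the factor list (red) and in 14 other lists (gray), with black bars for list medians and a dashed line at the median of all genes tested, 0.16. The photoreceptor factors lie near the cone genes (medians 0.95 and 0.97) and under the rod genes (1.34), and T cell and B cell markers lie near -2.04 and -2.01.

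The paralogs of the factors spread to both sides. Of 15 paralogs tested (19 listed), 8 were higher and 7 lower, with a median log2 fold change of 0.12, which was -0.04 after scaling by the median of ratios. An unadjusted p under 0.05 was reached by 3, all higher: *Rora*, the paralog of *Rorb*, with 1.16 (SE 0.29, adjusted p = 0.138, limma), *Neurod4*, a relative of *Neurod1*, with 0.79 (SE 0.31, adjusted p = 0.239, limma), and *Mafg*, a small MAF protein related to NRL, the last named after its value was seen. *Thra*, the paralog of *Thrb*, was at 105 ± 80.7 TPM in WT and 95.7 ± 12.1 in cKO (SD, n = 3 each), a log2 fold change of 0.12 (SE 0.48). Of 26 other regulators of retinal cell fate tested (31 listed), 15 were higher and 11 lower, with a median of 0.23 (0.06 after scaling). The 5 with an unadjusted p under 0.05, *Esrrb*, *Pax6*, *Prox1*, *Samd7* and *Samd11*, were all higher and, apart from *Pax6*, were named after their values were seen. The counts of both lists stand beside 11.9% of all genes tested that were higher at that level. *Esrrb*, *Samd7* and *Samd11* are themselves active in rods. *Pax6* of amacrine cells and progenitors had a log2 fold change of 0.83 (SE 0.23, adjusted p = 0.153, limma), and *Hes1*, a Notch target, -1.09 with an SE of 1.19.

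Over the 6 libraries the profiles of the factors resembled one another only in part. Likeness was the root mean square distance of log2(TPM + 1) after centering each gene, so a smaller value is a closer profile. Within the list the closest pair was *Crx* and *Nr2e3* (0.20), and *Prdm1* was the farthest from 8 of the other factors, with *Mef2d* the farthest from *Rorb*. The genes nearest to *Crx* were *Gm42555* (0.06), *Elovl4*, a lipid elongase of photoreceptors (0.09), and *Rom1*, a rod disc protein (0.09). The nearest to *Nrl* were *Gm43637* (0.04), *Ptprg* (0.09) and *Fsd1l* (0.10), and *Thrb* was nearest to *Spaca6* (0.10), *Ppef2*, a photoreceptor phosphatase (0.10), and *Hirip3* (0.11). *Otx2* lay nearest to *Actr3b* (0.06), *Gal3st3* (0.08) and *Necap1* (0.08), *Neurod1* to *Uggt2* (0.09), *Rabgef1* (0.10) and *Lmcd1* (0.10), and *Nr2e3* to *Armh4* (0.07), *Slco4a1* (0.09) and *Tmem136* (0.10). For *Rorb* they were *Tmtc3* (0.08), *Tsc2* (0.08) and *Lifr* (0.08), for *Rxrg* *Pkd2* (0.09), *Zfp708* (0.09) and *Gm26646* (0.10), for *Mef2d* *Ahrr* (0.14), *Wrap73* (0.14) and *Gm19409* (0.16), and for *Prdm1* *AI506816* (0.09), *Spaca1* (0.11) and *Ceacam1* (0.15). Such closeness was common over 6 libraries: 110 genes lay closer to *Crx* than *Nr2e3*, the nearest factor, did.

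Chromatin was asked the same question at the ends of these genes. Of the 10 factors, 4 had a region of the ATAC-seq comparison within 1000 bp of an end, against 51.5% of the 15514 genes with a position, and in each case it was at the 5′ end. The values are the authors' group means of log2 normalized reads, with no value per library and therefore no error or test. At *Thrb* the region (chr14:17659994-17661512, GRCm38) covers a RefSeq start and the window printed above, and it went from 6.04 in WT to 3.46 in cKO, a difference of -2.58. A predicted gene model overlaps this start as well. The other listed *Thrb* start (17981644) had no region and no peak over its window. At *Mef2d* (chr3:88141803-88142552) the values were 5.71 and 2.99, a difference of -2.72. At *Rorb* (chr19:19110070-19111576) they were 5.61 and 3.27, a difference of -2.34. At *Prdm1* (chr10:44529025-44529777) the region began 467 bp beyond the 5′ end and was weaker, 4.20 in WT and 2.76 in cKO, a difference of -1.44. All 4 were lower in cKO by over 1 on the log2 scale, as were 59.6% of all 16600 regions and 93.1% of the 6965 regions at ends of genes tested by RNA-seq. The median difference at gene ends was -2.58, so *Thrb* sat at the middle, *Mef2d* just below it, and *Prdm1* above the upper quartile of -1.91. RNA of these same 4 genes was higher in cKO for *Thrb*, *Rorb* and *Mef2d* and near level for *Prdm1*, with none called.

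Inside the genes the regions were less uniform. *Thrb* held 4 further regions, with differences of -0.97 at 37787 bp into the gene, -0.44 at 145188 bp, -2.22 at 187611 bp and 0.15 at 201558 bp. *Rorb* held 1, at 54427 bp into the gene (chr19:19056336-19056769), with 0.71 in WT and 2.25 in cKO, the lowest WT level of the 9 regions. On the linear scale these are 1.64 and 4.76 normalized reads, with no error or test. Each cKO library had a peak there and no WT library did. Entry to the comparison took peaks of at least 2 libraries, so this region entered through cKO alone. Neither its peak pattern nor the direction of its difference adds support. The *Thrb* region at 187611 bp and the *Prdm1* region at the 5′ end likewise entered through WT alone, so their lower cKO values add no support either.

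**Figure D4:**
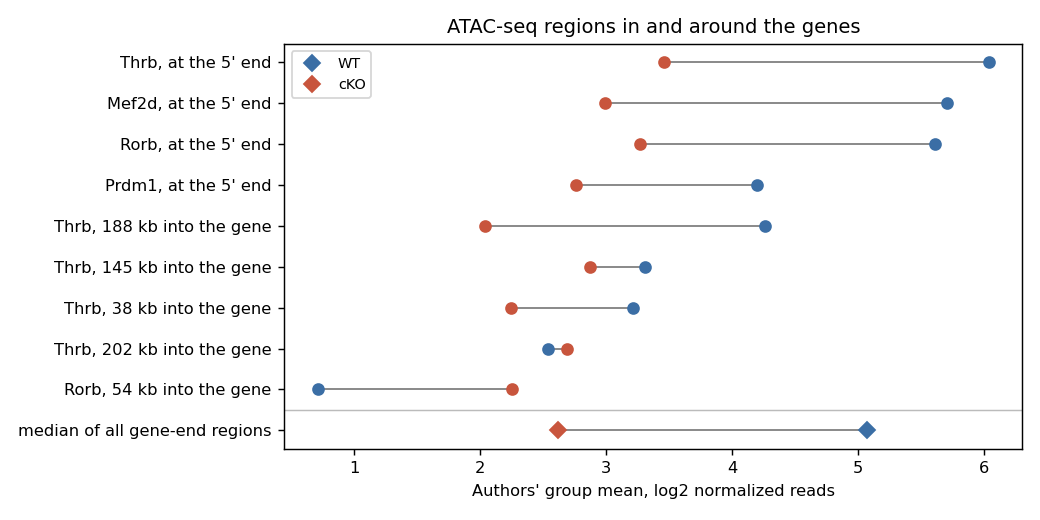
Authors' group means of log2 normalized reads in WT (blue) and cKO (red) for the 9 regions in or near the factor genes, with the median of the 6965 gene-end regions (diamonds). The 4 regions at 5′ ends lie to the left in cKO, and the *Rorb* region inside the gene lies to the right. That *Rorb* region entered the comparison through cKO peaks alone, and the *Prdm1* region through WT peaks alone, so their directions add no support.

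*Crx*, *Otx2*, *Nrl*, *Nr2e3*, *Neurod1* and *Rxrg* had no region at either end. A region of the comparison overlapped peaks of at least 2 libraries in all 16600 cases, so a peak seen in 1 library alone could not enter it. *Crx* had such a peak in WT 2, 1839 bp wide and over its start (chr7:15879320-15881158). *Neurod1* had one of 229 bp in WT 1 just before its start. For *Nrl* a peak of 400 bp lay across the 5′ end of the gene in cKO 1 (chr14:55524869-55525268). It covered neither the listed RefSeq start (55524252) nor the window printed above. *Otx2* had none within 1000 bp of an end in any library. By library, 6 of the 10 factors had a peak within 1000 bp of an end in WT 1, 5 in WT 2, 2 in cKO 1 and 5 in cKO 2, and over all genes the shares were 65.1%, 58.2%, 13.6% and 13.9%. Of the 5 in cKO 2, 1 (*Mef2d*) had its peak over the end itself, and that of *Neurod1* was at the 3′ end. The cKO libraries did not have few peaks in all, with 55902 and 68317 against 76522 and 42265 in WT. Peak lists gave positions without heights, and read depth was not given.

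**Figure D5:**
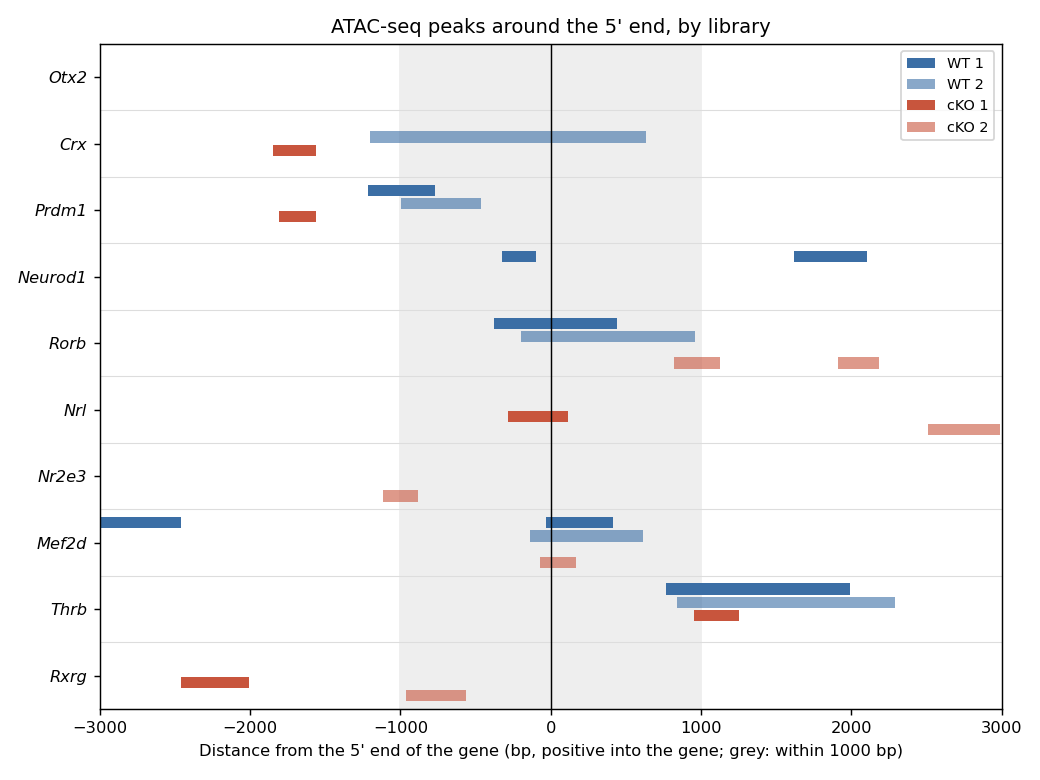
Peaks of the 4 ATAC-seq libraries around the 5′ end of each factor gene, by distance in bp (positive into the gene) with the 1000 bp on either side in gray. WT peaks lie at or near the 5′ ends of *Rorb*, *Mef2d*, *Thrb* and *Prdm1* in both libraries, and *Otx2* has none in the gray band.

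The regions can also be set against base composition. Over all windows, those overlapped by a region (8340) had a median GC of 62.8% with 19 CpG, and those without (24511) a median of 49.2% with 3. The printed windows of *Rorb*, *Mef2d* and *Thrb* lay above the former median in GC. In CpG only *Thrb* (30) did, with *Mef2d* at 19 and *Rorb* at 18. The other windows of *Rorb* (39.2% GC, 4 CpG) and *Thrb* (44% GC, 2 CpG) lay below the former medians, and no region overlapped them. Every window of *Crx*, *Nrl*, *Nr2e3* (52.8% GC, 3 CpG), *Rxrg* and *Otx2* lay below the former medians in both measures. The *Neurod1* window, without a region, lay above both (67.6% GC, 22 CpG). That of *Prdm1*, whose region lay elsewhere at the 5′ end of the gene, had 59.2% GC and 15 CpG. Among the rod genes 2 of 16 had a region at an end (*Reep6* and *Rom1*), among the cone genes 3 of 11, among the paralogs 5 of 15 and among the other fate regulators 12 of 26. T cell markers had 3 of 10, RGC markers 1 of 10 and myeloid markers 0 of 9.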

How the data were processed

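RNA-seq and ATAC-seq libraries were made from Thy1.2-sorted retinal cells, and groups came from the sample labels. The authors trimmed the RNA reads and quantified them with Salmon 1.0.0 and tximport on GENCODE vM23, and deposited one TPM value per gene and library. TPM keeps no depth, so no counting interval can be given. The authors aligned ATAC reads with Bowtie 2 2.3.5.1, called peaks per library (MACS2 2.2.5 in the submitters' processing notes) and deposited log2 mean normalized reads per group from DiffBind. The authors' own fold changes, p-values and FDR, from DESeq2 1.26.0 for RNA and DiffBind for ATAC-seq, were not used. Read strand in counting is not given in the sources used here, so genes lying over one another, such as *Gm7616* within *Nr2e3*, may share reads.

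A gene was tested when at least 3 of the 6 libraries reached a TPM of 1. Its log2(TPM + 1) was compared with limma 3.58.1 (R 4.3.3, empirical Bayes with trend), with Benjamini-Hochberg adjustment over 17555 genes. A pseudocount of 1 understates changes of low genes. Exact permutation tests were two-sided. The script was tested on simulated data. ATAC-seq regions were assigned to genes by the GRCm38.p6 positions of RefSeq. Python 3.11.15, pandas 2.3.3, numpy 2.4.6, scipy 1.17.1 and matplotlib 3.10.9 were used. The 10 factors and all lists were chosen with earlier results of these data known. Beside the factors, the text names the 3 genes of each list with the highest mean TPM, or examples of them, the 3 closest profiles, and genes said to be named after their values were seen. Values of some list genes are not reported here. Deviations of same-numbered WT and cKO libraries from their group means correlated across genes at 0.334, 0.101 and 0.425. Differently numbered pairs ran from -0.386 to 0.193, and the highest of them (WT 1 with cKO 2) exceeded the same-numbered pair 2. The replicate number was fitted as a block among the alternatives. Alternatives varied the scaling (median of ratios), the pseudocount (0.1), the filter (none, or a mean TPM minimum of 5) and the trend in limma, besides leaving out each library and using other distances for ATAC-seq. A planned comparison of protein sequences was not run.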

Additional observations from a re-analysis of the deposited data

How the results depend on the processing

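No factor passed an adjusted p under 0.05 in any of the 12 RNA alternatives, the median log2 fold change of the factors stayed between 0.69 and 0.97, and the number at an unadjusted p under 0.05 between 4 and 7. With the replicate block it was 7, *Rorb* being added, and the block changed no call; the adjusted p of *Crx*, the lowest of the 10, was 0.0743 there, in a range of 0.0743 to 0.469. Of 120 values of single factors 116 kept their direction and side of the threshold, and the other 4 were *Prdm1*, which ran from -0.55 to 0.34 with 1 library left out. The median relative to rod genes ranged from -0.70 to -0.34, and relative to cone genes it was -0.26. For ATAC-seq no paired fit was possible, since the values are group means. After subtracting the median of all regions, 2 of the 4 regions at factor ends were lower by over 1, and by distance from a listed RefSeq start, an alternative chosen after seeing the data, 3 regions remained at factors. Counting only peaks over the gene end left 2 factors in WT 1, 3 in WT 2, 1 in cKO 1 and 1 in cKO 2. A distance of 3000 bp gave 8, 5, 6 and 7 in the same order. A distance of 1000 bp from a RefSeq start gave 5, 5, 2 and 3. Shares over all genes at these other distances are not reported here. Unknown depth and 2 ATAC-seq libraries a group limit what the peak counts can show.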

Other observations

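*Otx2os1*, a noncoding gene that starts close to *Otx2* without overlapping it and was chosen after its values were seen, was at 41.7, 35.4 and 23.0 TPM in WT and 63.2, 73.2 and 39.4 in cKO, with its lowest cKO library in cKO 3, as for *Otx2*. Its log2 fold change was 0.79 (SE 0.33, adjusted p = 0.268, limma), and the groups overlapped.

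Peaks seen in a single library, which enter no comparison, lay near *Nr2e3* in WT 1 (389 bp) and cKO 2 (230 bp) and near *Rxrg* in cKO 2 (398 bp). At *Rorb* the cKO 2 peak within 1000 bp of the 5′ end (304 bp wide) did not cover the start, whereas the peaks of WT 1 (818 bp) and WT 2 (1157 bp) did. At *Thrb* the cKO 1 peak was 305 bp wide, against 1219 bp in WT 1 and 1448 bp in WT 2, and at *Mef2d* the cKO 2 peak was 242 bp wide, against 443 bp and 750 bp.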
